A study of Mus musculus with 6 samples.

Results

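The genes described here encode the machinery that copies chromosomal DNA, from the proteins that mark and license replication origins to the polymerases, clamp and chromatin factors that travel with the fork. They are 52 of the 27202 genes in a colon RNA-seq table, chosen by name and function, and all 52 had a mean normalized count of at least 10 and entered the fit with 16246 genes in all. The group was proposed with the genotype comparison of these same libraries already known, so its direction in that comparison is a description and was given no test of its own. The table covers 3 colon libraries of mice that lack *Nedd4l*, a ubiquitin ligase of the NEDD4 family, in the intestinal epithelium (*Nedd4l* fl/fl VillinCre, called cKO) and 3 of littermates (*Nedd4l* fl/fl, called WT). Cre was driven by the Villin promoter, which is active in epithelial cells, so the other cells of the colon kept their floxed alleles, and the WT littermates carried the same floxed alleles without Cre. All mice were 8 to 10 weeks old, and all drank 2% dextran sulfate sodium (DSS), an agent that injures the colonic epithelium, until day 7; mice without DSS were not analysed here.

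Before a cell can copy its DNA, the origin recognition complex (ORC) with CDC6 and CDT1 loads the ring-shaped MCM2-7 helicase onto origins, a step called licensing. Kinases then convert the loaded rings into active helicases by adding CDC45 and the GINS complex, and polymerases follow behind the fork, held on DNA by the sliding clamp PCNA. Many of these genes are transcribed at the start of S phase under E2F factors, and in the colon the cells that copy DNA lie mainly in the lower crypt and in lymphoid follicles.

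The targeted gene was checked before the replication genes. *Nedd4l* had 476, 942 and 566 normalized counts in cKO1, cKO2 and cKO3, against 1241, 1271 and 1266 in WT1, WT2 and WT3, with an adjusted p of 0.225 in the limma fit with Benjamini-Hochberg adjustment. The cKO libraries were all below the WT libraries, and cKO2 kept the most. Over all genes tested, cKO2 correlated more closely with the WT libraries (mean Pearson r across genes of 0.977) than with the other cKO libraries (0.966). Of the colon marker lists, the summed colonic epithelial markers overlapped between genotypes (274219 to 338065 normalized counts in cKO and 309027 to 336967 in WT).

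The replication genes were lower in cKO colon for nearly every member, and the size of the difference was not the same at every step of replication. The fitted log2 fold change, cKO against WT, was below 0 for 49 of the 52 genes, with a median of -0.54 against 0.0013 over all genes tested, and it was below -0.5 for 28 members (6.84% of all genes tested). In 36 members all 3 cKO libraries lay below all 3 WT libraries, a pattern held by 10.9% of all genes tested, and in 0 members did they all lie above, where the background was 10.5%. An unadjusted limma p under 0.05 with a lower cKO mean was found in 34 members (7.08% of all genes tested) and with a higher cKO mean in 0 (6.91%). After Benjamini-Hochberg adjustment over all genes no member passed 0.05 in either direction, where the background was 0% for the whole table, and the members' adjusted p ran from 0.116 to 0.973. Without cKO1, 14 members were lower at a limma adjusted p under 0.05, of 22 lower genes in all. Among the 14 were *Cdt1*, 5 of the 6 MCM genes, *Pole* and *Dtl*. Without cKO2 the count was 3 (*Wdhd1*, *Dtl* and *Uhrf1*), of 52 lower genes in all. Without cKO3, WT1, WT2 or WT3 it was 0. With limma's library weights, which gave cKO3 a weight of 4.39 against 0.414 for cKO1, the count was 31, of 369 lower genes in all.

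As a share of each library, the 52 genes made up 0.188%, 0.153% and 0.151% of the normalized counts in cKO1, cKO2 and cKO3. In WT1, WT2 and WT3 they made up 0.220%, 0.245% and 0.251%, so the genotypes did not overlap. The cKO libraries differed among themselves: cKO1 was the highest of the 3 in 43 members and cKO3 the lowest in 32. The median member differed from the WT mean by -0.32, -0.58 and -0.69 log2 units in cKO1, cKO2 and cKO3. Among the WT libraries WT1 was the lowest in 37 members, with a median difference from the WT mean of -0.09. The median coefficient of variation of a member was 12.9% in cKO and 9.44% in WT. The RNA came from colon tissue, so fewer cells copying DNA and less replication RNA per cell cannot be told apart in these values.

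**Figure D1:**
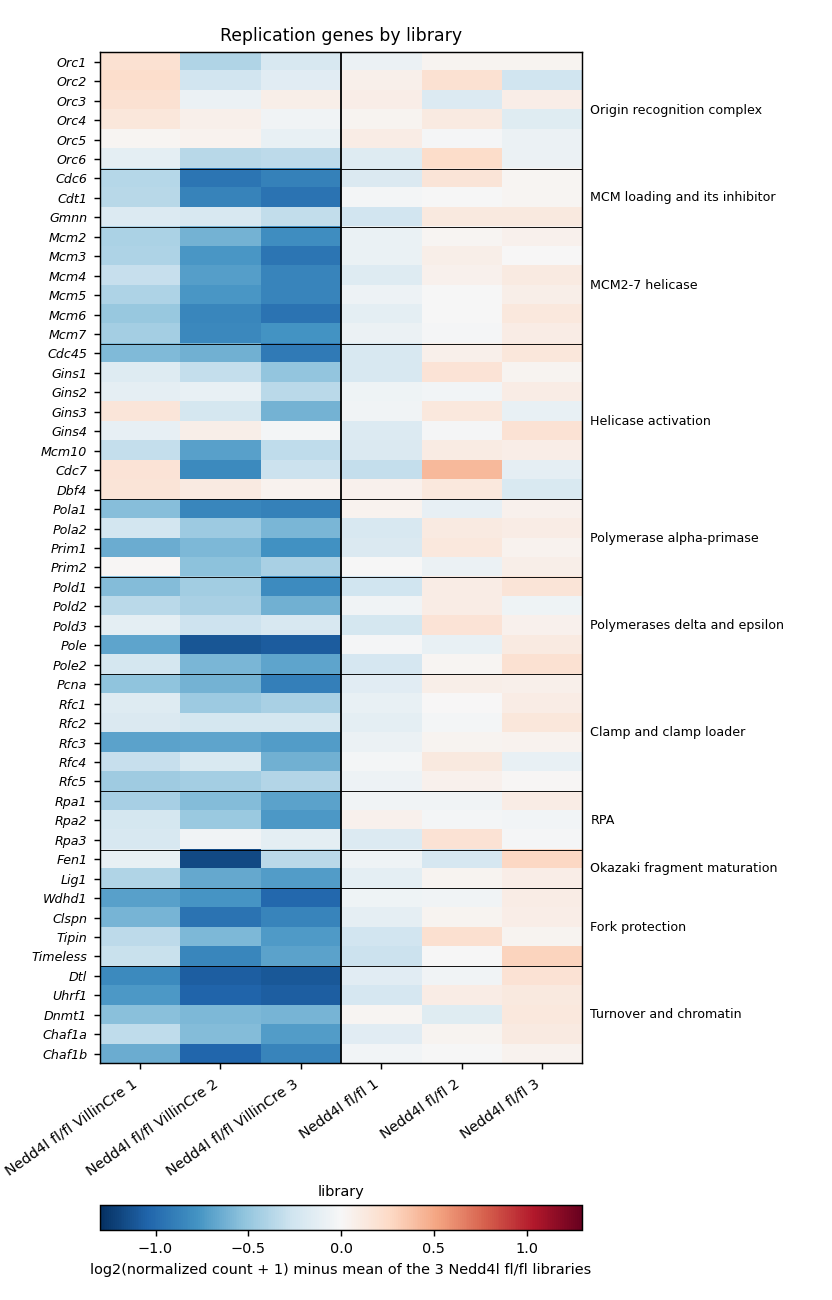
Each cell is 1 gene in 1 library, coloured by its log2(normalized count + 1) after subtracting the average over the Nedd4l fl/fl libraries, with genes grouped by their step in replication. The MCM2-7, fork protection and chromatin blocks are blue in all 3 Nedd4l fl/fl VillinCre libraries and palest in cKO1, and the origin recognition block is mixed.

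Some cell type markers moved with genotype beside the members. The summed crypt base and transit amplifying list (10 of 10 genes tested) ran from 6733 to 9075 normalized counts in cKO and from 9163 to 9399 in WT, with 3 of its 10 genes below WT in every cKO library. Among these was *Cdca7*, which also stands among the other replication genes described further on, and without it, a choice made after seeing the data, the sums overlapped at 5871 to 8159 in cKO and 7978 to 8152 in WT. With or without *Cdca7* the sum was lowest in cKO1, the cKO library in which the replication genes were highest. The summed fibroblast list (7 of 7 genes tested) ran from 21201 to 42831 in cKO and from 10761 to 18250 in WT. Collagen genes made up most of this sum. Of the 7 genes, 4 were above WT in every cKO library and 3 overlapped. The B cell and germinal center list (10 of 10) overlapped, with sums of 4666, 2549 and 1990 in cKO1, cKO2 and cKO3 and 1515, 2365 and 3298 in WT1, WT2 and WT3. Within each genotype its libraries stood in the same order as the members' share of the library, although WT sums were not the higher ones. Neutrophil sums (6 of 6) overlapped at 2983 to 9235 in cKO and 2967 to 3233 in WT. Of the 6 genes, 2 were above WT in every cKO library and 4 overlapped. *Ly6g* made up most of the sum in every library but cKO1. It overlapped between genotypes, and was the only gene of the list with a negative log2 fold change (-0.27). The other 5 genes, set apart after seeing the data, summed to 6748, 150 and 998 in cKO1, cKO2 and cKO3 and to 137, 97.2 and 127 in WT1, WT2 and WT3, above WT in every cKO library, with *Cxcr2* at 0 in WT1 and WT3. Of 8 macrophage and monocyte genes, *Ly6c2* (log2 fold change 1.63) and *Ccr2* (374, 261 and 496 normalized counts in cKO, 221, 119.7 and 179.7 in WT) were above WT in every cKO library, while the summed list overlapped. The part of these cells in the replication genes' levels was not tested.

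ORC is the complex that binds origins and to which the helicase loaders are recruited. Of its 6 subunit genes 0 separated the genotypes and 0 had an unadjusted limma p under 0.05. Over all genes tested, 10.9% separated with cKO lower and 10.5% with cKO higher. The unadjusted limma p was under 0.05 in 7.08% with a lower and 6.91% with a higher cKO mean. With 6 genes, counts of 0 lie near these shares. The median log2 fold change of the class was -0.03, with single values from -0.27 to 0.07. *Orc6*, the smallest subunit gene and the lowest of the class in fold change, had 274, 233 and 235 normalized counts in cKO1, cKO2 and cKO3 and 267, 353 and 284 in WT1, WT2 and WT3. *Orc5* had 267, 271 and 245 in cKO and 281, 260 and 249 in WT. Both genes overlapped between genotypes, and the limma adjusted p with Benjamini-Hochberg adjustment was 0.431 for *Orc6* and 0.973 for *Orc5*. *Orc3* (0.07 ± 0.12, SE) and *Orc4* (0.05 ± 0.11) were the only subunits with a positive log2 fold change, and *Orc1* (-0.13 ± 0.18) and *Orc2* (-0.06 ± 0.17) were also within 1 standard error of 0. *Orc2* shares 29.8% of its exonic bases with *Nif3l1* on the opposite strand, so reads of those bases cannot be assigned to either gene here. The signs of *Orc2*, *Orc3*, *Orc4* and *Orc5* turned when 1 library was left out.

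The factors that load MCM2-7 onto ORC-bound origins lay much lower in cKO. *Cdt1*, which brings the MCM ring to the origin, had 485, 341 and 320 normalized counts in cKO1, cKO2 and cKO3 and 612, 621 and 634 in WT1, WT2 and WT3. The cKO libraries were all lower, the closest pair being cKO1 and WT1, and the log2 fold change was -0.73 ± 0.16 (SE). *Cdc6*, the ATPase that works with CDT1, had the same fold change of -0.73 (± 0.18) and also did not overlap. *Gmnn* encodes geminin, which binds CDT1 and blocks relicensing, and it had 382, 373 and 345 in cKO and 362, 469 and 469 in WT. Here WT1 lay among the cKO libraries, and the log2 fold change was -0.23 ± 0.13, with adjusted p of 0.194 for *Cdt1*, 0.215 for *Cdc6* and 0.448 for *Gmnn* by limma with Benjamini-Hochberg adjustment.

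The 6 genes of the MCM2-7 ring, the motor of the replicative helicase, were lower in every cKO library than in any WT library. Over all genes tested, 10.9% showed this pattern. The log2 fold changes of the ring genes lay close together, from -0.61 (*Mcm2*) to -0.77 (*Mcm6*). Their cKO means were 59.2% to 65.9% of WT means, for 6 separate genes on 5 chromosomes. *Mcm7* (chr5:138164583-138172422, minus strand) had the smallest p of the class, with 1162, 881 and 925 normalized counts in cKO1, cKO2 and cKO3 and 1495, 1564 and 1690 in WT1, WT2 and WT3. *Mcm4* (chr16:15623897-15637400, minus strand) had the largest p, with 914, 688 and 621 in cKO and 1000, 1168 and 1224 in WT. In *Mcm4* the gap between cKO1 and WT1 was the narrowest of the 6 genes. By limma with Benjamini-Hochberg adjustment, the adjusted p was 0.138 for *Mcm7* and *Mcm6*, 0.169 for *Mcm2*, *Mcm3* and *Mcm5* and 0.213 for *Mcm4*. Per kilobase of exon, WT levels of the ring genes ran from 194 normalized counts for *Mcm2* to 516 for *Mcm6*, although the ring holds equal copies of its subunits.

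**Figure D2:**
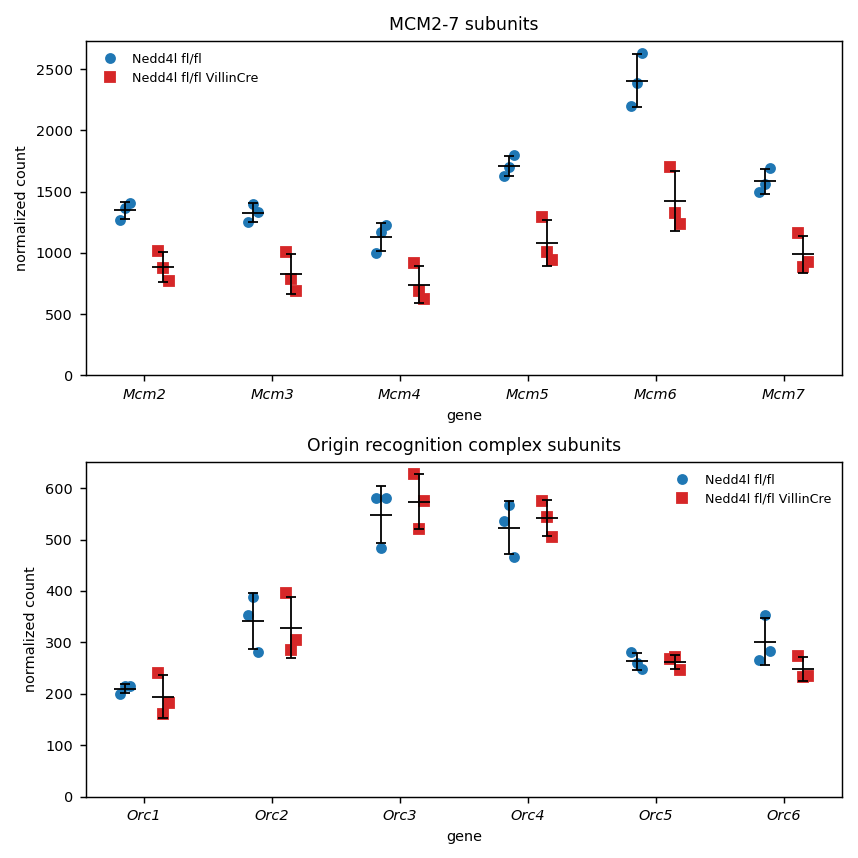
Normalized count of each library (points) for the MCM2-7 and ORC subunit genes, with the mean and SD of the 3 libraries of each genotype as bars. All 6 MCM genes show the red Nedd4l fl/fl VillinCre points below the blue Nedd4l fl/fl points, and all 6 ORC genes show them mixed.

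Of the MCM genes, *Pcna* and *Uhrf1*, promoters are printed where an E2F motif was found. *Pcna* held none. The motif was searched as TTTCCCGC, TTTCGCGC, TTTGCCGC or TTTGGCGC on either strand, from 250 bases before to 50 bases after the RefSeq start, with overlapping matches merged. It was found in 4 of the 5 MCM genes that matched a RefSeq promoter (*Mcm3*, *Mcm5*, *Mcm6* and *Mcm7*, not *Mcm2*), against 2.6% of the promoters of 27025 RefSeq genes and 4.25% of 11457 tested genes with a promoter. The sequences below run 5′ to 3′ along the transcribed strand, from 200 bases before to 30 bases after the start, in build GRCm38.p6, and capitals mark E2F motif matches. The *Mcm3* window is chr1:20820283-20820512 on the minus strand, and that of *Mcm5* is chr8:75109309-75109538 on the plus strand. The *Mcm6* window is chr1:128359676-128359905 and that of *Mcm7* is chr5:138171854-138172083, both on the minus strand.
Mcm3: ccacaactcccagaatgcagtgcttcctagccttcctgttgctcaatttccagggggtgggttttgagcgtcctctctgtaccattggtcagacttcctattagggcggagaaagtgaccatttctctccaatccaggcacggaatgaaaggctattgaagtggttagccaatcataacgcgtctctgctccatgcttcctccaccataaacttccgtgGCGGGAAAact
Mcm5: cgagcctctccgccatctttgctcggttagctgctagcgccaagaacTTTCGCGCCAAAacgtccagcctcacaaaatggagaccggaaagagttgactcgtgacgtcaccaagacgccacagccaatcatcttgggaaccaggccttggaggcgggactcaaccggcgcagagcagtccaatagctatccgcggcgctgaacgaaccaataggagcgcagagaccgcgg
Mcm6: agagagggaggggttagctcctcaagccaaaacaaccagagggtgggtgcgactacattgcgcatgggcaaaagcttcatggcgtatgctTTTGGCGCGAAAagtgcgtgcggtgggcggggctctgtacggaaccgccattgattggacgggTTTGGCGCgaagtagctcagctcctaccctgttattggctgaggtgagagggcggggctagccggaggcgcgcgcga
Mcm7: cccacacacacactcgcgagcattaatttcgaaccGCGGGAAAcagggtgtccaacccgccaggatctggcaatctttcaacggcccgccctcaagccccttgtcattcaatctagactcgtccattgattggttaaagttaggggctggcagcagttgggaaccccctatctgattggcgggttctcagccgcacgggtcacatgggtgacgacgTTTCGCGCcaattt
In *Mcm5* and *Mcm6* matches of opposite strands overlapped into 1 run of 12 bases, TTTCGCGCCAAA and TTTGGCGCGAAA. *Mcm3* held a further match past the printed end, at bases 39 to 46 after the start. All 5 MCM promoters also held CCAAT on some strand, a sequence found in 41.1% of RefSeq genes' promoters. A match is a stretch of letters and not a shown binding site.

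Conversion of the loaded ring into an active helicase drew on genes that behaved unequally. *Cdc45*, the subunit that joins MCM2-7 and GINS in the active helicase, had 253, 245 and 199 normalized counts in cKO1, cKO2 and cKO3 and 326, 396 and 418 in WT1, WT2 and WT3. All cKO values were lower, with a log2 fold change of -0.71 ± 0.15 (SE) and an adjusted p of 0.192 by limma with Benjamini-Hochberg adjustment. *Mcm10*, which helps start unwinding, did not overlap either (-0.45 ± 0.14). The 4 GINS genes lay nearer 0, at -0.33 ± 0.19 for *Gins1*, -0.19 ± 0.14 for *Gins2*, -0.23 ± 0.23 for *Gins3* and -0.02 ± 0.14 for *Gins4*. Of these only *Gins2* did not overlap, and 67.3% of its exonic bases are shared with *Gse1* on the opposite strand. *Gins4* had 278, 316 and 295 in cKO and 265, 298 and 342 in WT, fully interleaved, and its sign turned without cKO1 or without WT3. The kinase that fires the origins, CDC7 with its activator DBF4, also overlapped: *Cdc7* was at -0.31 ± 0.29 and *Dbf4* at 0.11 ± 0.11, the highest fold change of the 52 genes.

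Polymerase alpha-primase, which lays down the RNA-DNA primers, was lower in cKO in its catalytic subunits. *Pola1*, the DNA polymerase subunit, had 377, 306 and 301 normalized counts in cKO1, cKO2 and cKO3 and 573, 514 and 576 in WT1, WT2 and WT3, with a wide gap between the genotypes. Its log2 fold change was -0.76 ± 0.12 (SE). *Prim1*, the primase subunit that makes the RNA, was at -0.67 ± 0.12, and the accessory *Pola2* at -0.43 ± 0.14, and neither overlapped. *Prim2*, the large primase subunit, had 266, 180 and 195 in cKO and 262, 249 and 276 in WT, so that cKO1 lay between the WT libraries, and its fold change was -0.31 ± 0.17. With Benjamini-Hochberg adjustment, limma gave an adjusted p of 0.125 for *Pola1* and 0.430 for *Prim2*.

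Of the fork polymerases, the leading-strand enzyme epsilon held the second largest difference of all 52 genes. *Pole*, its catalytic subunit, had 357, 266 and 271 normalized counts in cKO1, cKO2 and cKO3 and 568, 537 and 625 in WT1, WT2 and WT3. Every cKO library was well below WT, cKO1 least so, and the cKO mean was 51.7% of the WT mean (log2 fold change -0.96 ± 0.14, SE). The epsilon subunit *Pole2* was at -0.50 ± 0.19. The polymerase delta genes, of the lagging strand, were at -0.61 ± 0.14 (*Pold1*, catalytic), -0.46 ± 0.10 (*Pold2*) and -0.20 ± 0.12 (*Pold3*). *Pold3* had 875, 788 and 825 in cKO and 811, 1079 and 991 in WT, where WT1 lay among the cKO libraries, and it was the only polymerase gene of this class to overlap. In this class limma's adjusted p (Benjamini-Hochberg) ran from 0.116 (*Pole*) to 0.457 (*Pold3*).

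The sliding clamp and its loader separated the genotypes in 6 of 6 genes, with log2 fold changes from -0.22 to -0.70. Separation with cKO lower was found in 10.9% of all genes tested. *Rfc3*, a loader subunit, had 262, 262 and 255 normalized counts in cKO1, cKO2 and cKO3 and 401, 433 and 436 in WT1, WT2 and WT3. Its cKO libraries hardly differed from each other (SD 4.09 around a mean of 259), unlike those of most members, and the log2 fold change was -0.70 ± 0.10 (SE). *Rfc2*, another loader subunit, had 736, 714 and 716 in cKO and 769, 826 and 930 in WT, at -0.22 ± 0.09. *Rfc5* (-0.43), *Rfc4* (-0.38) and *Rfc1* (-0.36) lay between these. *Pcna*, the clamp itself, was at -0.67 ± 0.11 and had the highest level of all members per kilobase of exon, 1163 normalized counts in WT. Adjusted p by limma with Benjamini-Hochberg adjustment was 0.116 for *Rfc3*, 0.137 for *Pcna* and 0.359 for *Rfc2*.

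Replication protein A (RPA) coats the unwound strands, and its larger subunits were lower in cKO. *Rpa1*, the main DNA-binding subunit, had 984, 901 and 820 normalized counts in cKO1, cKO2 and cKO3 and 1289, 1286 and 1418 in WT1, WT2 and WT3 (log2 fold change -0.56 ± 0.09, SE). *Rpa2* did not overlap either, at -0.49 ± 0.14. *Rpa3*, the smallest subunit, had 302, 338 and 321 in cKO and 310, 399 and 345 in WT, with the genotypes interleaved (-0.13 ± 0.13). Adjusted p by limma with Benjamini-Hochberg adjustment was 0.137 for *Rpa1* and 0.666 for *Rpa3*.

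Joining of the lagging-strand fragments rests on *Lig1*, the DNA ligase, and *Fen1*, the flap nuclease. *Lig1* had 1049, 862 and 827 normalized counts in cKO1, cKO2 and cKO3 and 1258, 1408 and 1460 in WT1, WT2 and WT3, without overlap (log2 fold change -0.60 ± 0.11, SE). *Fen1* had 43.1, 19.9 and 36.1 in cKO and 44.4, 39.6 and 55.9 in WT, and cKO1 lay above WT2 (-0.54 ± 0.34). Its WT level, 19.3 normalized counts per kilobase of exon, was the lowest of any member, and 84.2% of the *Fen1* exonic bases are also annotated to genes that overlap it, chiefly *Gm10143* on the opposite strand. How reads of the shared bases were assigned is not given in the sources used here. The limma fit gave an adjusted p (Benjamini-Hochberg) of 0.169 for *Lig1* and 0.486 for *Fen1*.

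The 4 genes that couple the helicase to the polymerases and guard the stalled fork separated the genotypes without exception. Separation with cKO lower was found in 10.9% of all genes tested. *Wdhd1*, which links the helicase to polymerase alpha, had 434, 418 and 351 normalized counts in cKO1, cKO2 and cKO3 and 685, 690 and 758 in WT1, WT2 and WT3. The gap between the groups exceeded the spread within each, and the log2 fold change was -0.83 ± 0.11 (SE). *Clspn*, the checkpoint mediator claspin, was at -0.81 ± 0.13, and *Tipin*, partner of TIMELESS at the fork, at -0.55 ± 0.17. *Timeless* had 292, 198 and 221 in cKO and 294, 355 and 436 in WT (-0.61 ± 0.20). In *Timeless* the highest cKO and lowest WT library differed by 0.657%, the narrowest gap of the 36 separated members, whose median gap was 19.9%. In the limma fit the Benjamini-Hochberg adjusted p was 0.116 for *Wdhd1* and 0.284 for *Timeless*.

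The genes that act on licensing factors and chromatin behind the fork had the lowest median of the 11 classes, -0.85. *Dtl*, the adaptor by which a ubiquitin ligase destroys CDT1 on PCNA-bound DNA, had 314, 265 and 261 normalized counts in cKO1, cKO2 and cKO3 and 507, 543 and 637 in WT1, WT2 and WT3. The cKO mean was 49.8% of the WT mean (log2 fold change -1.0 ± 0.13, SE), and the gap of 37.9% between the highest cKO and lowest WT library was the widest of any member. *Uhrf1*, which reads hemimethylated DNA and recruits the maintenance methyltransferase, was at -0.95 ± 0.13, and that methyltransferase, *Dnmt1*, at -0.57 ± 0.09. Of the CAF-1 histone chaperone, *Chaf1b* was at -0.85 ± 0.13. *Chaf1a* had 407, 346 and 308 in cKO and 460, 524 and 552 in WT, also without overlap (-0.54 ± 0.13), although 52.5% of its exonic bases are shared with *Ubxn6* on the opposite strand. Adjusted p by limma with Benjamini-Hochberg adjustment was 0.116 for *Dtl* and *Uhrf1* and 0.215 for *Chaf1a*.

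The *Uhrf1* promoter is printed as that of a chromatin gene with an E2F motif, from 200 bases before to 30 after the RefSeq start at chr17:56304113-56304342 (GRCm38.p6, plus strand), with the match in capitals.
Uhrf1: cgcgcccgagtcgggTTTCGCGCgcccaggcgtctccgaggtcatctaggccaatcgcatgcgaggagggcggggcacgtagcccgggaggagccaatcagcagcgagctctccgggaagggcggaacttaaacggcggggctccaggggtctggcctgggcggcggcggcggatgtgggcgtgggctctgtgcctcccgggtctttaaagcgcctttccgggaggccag
Its match began at position -185 from the start, the farthest from the start of any member's nearest match.

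**Figure D3:**
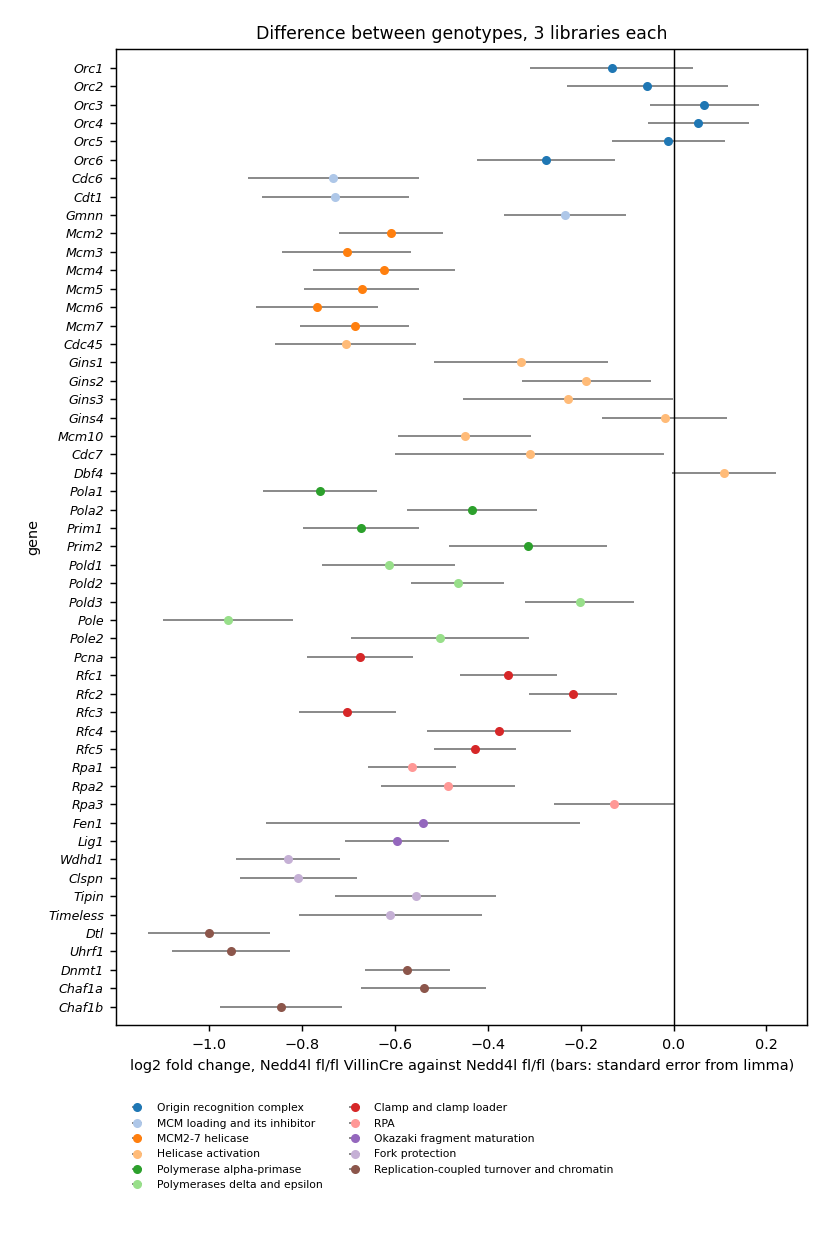
Fitted log2 fold change of each of the 52 genes (points, coloured by step of replication) with its standard error from limma (bars), 3 libraries of each genotype. Dtl (-1.0), Pole (-0.96) and Uhrf1 (-0.95) lie farthest left, and 5 of the 6 ORC genes, Gins4, Dbf4 and Rpa3 lie within 1 standard error of 0.

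Over the members, 43 of 52 matched a RefSeq promoter by symbol, and 19 of these (44.2%) held an E2F motif. In all 24 merged matches were found, 5 genes held 2 or more (*Mcm3*, *Mcm6*, *Mcm7*, *Rfc3* and *Dnmt1*), and in 15 genes the nearest match lay within 100 bases of the start. The median log2 fold change was -0.69 in the 19 genes with a match, of which 15 separated the genotypes, and -0.46 in the 24 without, of which 16 did. *Orc1*, *Orc3*, *Gins3* and *Pold3* held a match and overlapped between genotypes. The cell cycle homology motif searched as TTTGAA or TTCGAA, known from mitotic genes, was in 23.3% of member promoters. It was in 16.9% of tested genes with a promoter and 21.7% of RefSeq genes' promoters. CCAAT was in 60.5%, 42.2% and 41.1% of these. Another 9 members, *Gmnn*, *Mcm4*, *Gins1*, *Gins2*, *Gins4*, *Prim2*, *Pole*, *Rfc2* and *Tipin*, had no entry in the promoter table used.

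**Figure D4:**
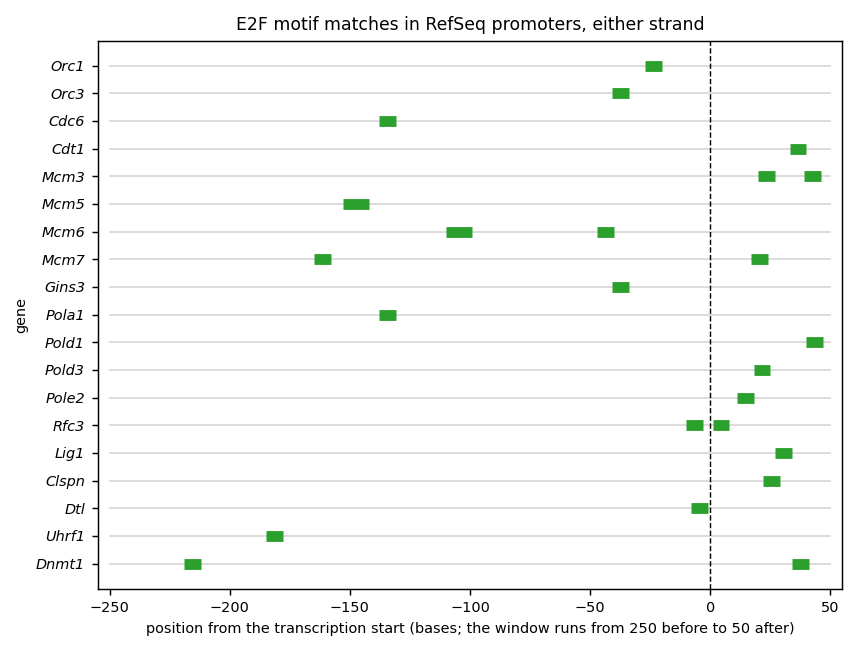
Position of each E2F motif match (green bars) in the 19 member promoters that held one, in bases from the RefSeq transcription start (dashed line), within a window from 250 before to 50 after. Matches lie on either side of the start, in 15 genes within 100 bases of it.

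Genes that work beside the replisome were compared as 5 further lists in the same fit, and each had a median nearer 0 than the members. The first held 40 other replication genes, such as alternative clamp loaders and cohesion factors. Of these, 24 had a lower cKO mean at an unadjusted limma p under 0.05 and 0 a higher one. Over all genes tested the shares were 7.08% lower and 6.91% higher, which also stand beside the counts of the lists that follow. The median log2 fold change of the 40 genes was -0.31. *Dscc1*, a subunit of the alternative clamp loader, had 62.3, 60.8 and 58.8 normalized counts in cKO and 107, 123 and 125 in WT. Of 16 genes that make or break down deoxynucleotides, 12 were lower and 1 higher (median -0.44), with *Shmt1*, a serine hydroxymethyltransferase, at -0.62 and *Cad*, an enzyme of pyrimidine synthesis, at -0.58. The higher gene, named after its values were seen, was *Samhd1*, which breaks down deoxynucleotides, at 0.88 ± 0.18 (SE), above WT in every cKO library. Of 18 E2F and pocket protein genes, 7 were lower and 0 higher (median -0.20). *E2f8*, an E2F repressor, had 392, 366 and 332 in cKO and 625, 892 and 848 in WT (-1.10 ± 0.15, SE), the lowest fold change in these lists. *E2f1*, an activator, was at -0.83 and its partner *Tfdp1* at -0.37, and neither overlapped between genotypes. Of 12 G1/S cyclin and kinase genes, 4 were lower and 0 higher (median -0.18), among them *Ccne2* at -0.68 and *Ccne1* at -0.55. *Ccne1* overlapped between genotypes and *Ccne2* did not. None of the genes in these lists passed an adjusted p of 0.05 by limma with Benjamini-Hochberg adjustment, the smallest being 0.116.

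Mitotic genes did not share the members' direction. Among 34 mitotic genes, 18 had a negative and 16 a positive log2 fold change, with a median of -0.01. An unadjusted limma p under 0.05 came with a lower cKO mean in 2 (7.08% of all genes tested) and with a higher one in 5 (6.91%). In 5 genes every cKO library lay below WT and in 6 above (10.9% and 10.5% of all genes tested). All 3 genes with the smallest p were higher in cKO. *Cdc20*, an activator of the anaphase-promoting complex, had 927, 921 and 1176 normalized counts in cKO1, cKO2 and cKO3 and 707, 760 and 745 in WT1, WT2 and WT3. *Ccnb2* (0.40 ± 0.12, SE) and *Ccnb1* (0.37 ± 0.12), the B-type cyclins, were also higher in every cKO library. *Mki67*, the proliferation antigen Ki-67, overlapped at 5976, 6020 and 6943 in cKO and 6963, 6752 and 6572 in WT (-0.10 ± 0.09). The adjusted p of *Cdc20* was 0.219 and that of *Mki67* 0.598 by limma with Benjamini-Hochberg adjustment. Of the mitotic genes with a RefSeq promoter 1 of 28 (3.57%) held the E2F motif and 21 of 28 the TTTGAA or TTCGAA motif. The E2F motif was in 26.5% of other replication genes with a promoter and in 0 of 14 deoxynucleotide genes. It was in 42.9% of E2F and pocket protein genes and 12.5% of G1/S genes with a promoter. How motif and fold change go together over the lists was not tested.

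**Figure D5:**
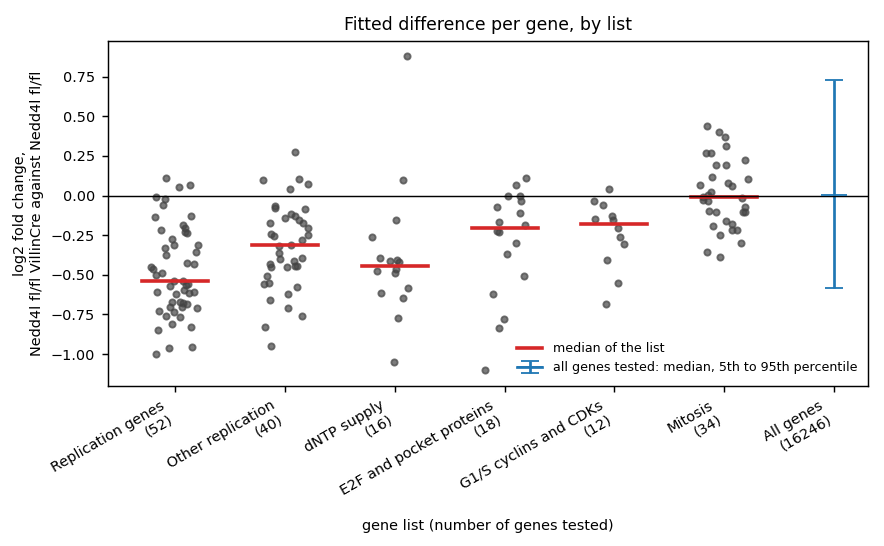
Fitted log2 fold change of each gene (points) in the 52 replication genes and 5 related lists, with the list median (red line), beside the median and the 5th to 95th percentile of all 16246 genes tested (blue). The red medians run from -0.54 for the replication genes to -0.01 for mitosis.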

How the data were processed

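Total colon RNA was sequenced in 6 libraries, and the authors deposited 1 table of 27202 genes holding a signal per library, reads per gene divided by a size factor, which are called normalized counts here. The table's genotype means, log2 fold changes, p-values and adjusted p-values, as the authors deposited them, were not used. The submitters' processing notes list HISAT2 2.0.5, featureCounts 1.5.0-p3 and hg18, a human build, but the identifiers are mouse, and 97.3% of the 27191 that match GENCODE M21 have its GRCm38 coordinates. Strand setting and treatment of shared reads are not given in the sources used here. Every value was a whole multiple of its library's smallest, giving 14914367 to 17547270 steps per library as an approximate depth; no count test was run on these.

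Genes with a mean of at least 10 were tested in all 6 libraries as log2(value + 1) with limma 3.58.1 in R 4.3.3 (trend and robust), with Benjamini-Hochberg adjustment over 16246 genes and a threshold of 0.05. Fold changes and standard errors are on that scale, which understates low genes. The labels number the libraries without naming a mouse for each, so p-values measure only the spread between these samples, which may be technical. In 10 simulated tables with 200 changed genes each, on 16246 genes for this comparison, 48.8% of changes of 1 and 77.1% of changes of 2 on the log2 scale were recovered, and 5.07% of calls were unchanged genes. Noise was drawn separately for each gene, without deviations shared across a library. Changes as small as the members' median of -0.54 were not simulated, so these rates do not cover them. The members and all gene lists were chosen with earlier results of these data known. Values in every library are given for the genes with the smallest and largest p of each step, and for related lists only the 3 smallest p and *Mki67* are named, except 1 gene that is not reported here. Python 3.11.15 and matplotlib 3.10.9 read RefSeq promoters (GRCm38.p6) and drew the plots.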

Additional observations from a re-analysis of the deposited data

How the results depend on the processing

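Over 14 alternatives (pseudocounts of 0.5 and 5, no filter, a mean of at least 50, quantile and TMM scaling, library weights, the replicate block and each library left out) the median member log2 fold change stayed between -0.67 and -0.48, and 47 of 52 members kept their sign. Members separated with cKO below WT numbered 36 to 42. Leaving out a library can only keep or raise this number, so its floor there was fixed in advance. With quantile scaling it was 37 and with TMM scaling 36. Members lower at an unadjusted limma p under 0.05 numbered 29 to 41. Counts at an adjusted p under 0.05 did depend on the setting: 0 lower and 0 higher genes became 23 and 7 without the filter, with 10 members lower, and 369 and 262 with library weights, with 31 members lower. Leaving out 1 library gave 0 to 52 lower and 0 to 70 higher genes and 0 to 14 lower members, the highest being 14 without cKO1 for members and, for all genes, the values without cKO2; without cKO1 the genes were 22 and 2. No member was called higher anywhere. The causes were not tested. With 1 library out, log2 fold changes ran from -0.20 to 0.043 for *Orc2*, -0.021 to 0.14 for *Orc3*, -0.027 to 0.11 for *Orc4*, -0.0514 to 0.038 for *Orc5* and -0.11 to 0.076 for *Gins4*, and *Mki67* was 0.0056 with library weights. Same-numbered libraries did not deviate together (correlations of -0.029, -0.090 and -0.056). Such correlations over all genes cannot exclude a weak pairing, so whether the numbers pair libraries is unknown. The replicate block gave 0 genes called, 33 members lower at an unadjusted limma p under 0.05 and a median of -0.54. Count models planned for recovered reads were not run. With 3 libraries a genotype an exact permutation test of 1 gene cannot go below 0.10, and member values varied more among the cKO libraries than among the WT libraries (median coefficient of variation 12.9% against 9.44%).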

Other observations

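Several replication genes share a promoter region with a neighbour read the other way. A protein-coding gene on the opposite strand started within 1000 bases of the start of 10 members (19.2%), against 9.30% of all 13919 protein-coding genes tested, and 10 such neighbours were tested. *Ints7*, the neighbour of *Dtl* with a start 92 bases away, had 756, 629 and 754 normalized counts in cKO1, cKO2 and cKO3 and 905, 984 and 1051 in WT1, WT2 and WT3, a log2 fold change of -0.46 ± 0.11 (SE). *Pxmp2*, 120 bases from *Pole*, was at -0.56 ± 0.24 and did not overlap between genotypes either. Its level was low, at 36, 32 and 28 normalized counts in cKO and 48, 43 and 51 in WT. The neighbours of *Mcm4* (*Prkdc*, -0.06), *Wdhd1* (*Socs4*, -0.03) and *Rpa1* (*Smyd4*, -0.03) overlapped, although those members were at -0.62, -0.83 and -0.56. Beside *Orc1*, *Prpf38a* was higher in every cKO library (0.24 ± 0.08), and beside *Orc3*, *Rars2* was lower in every one (-0.24 ± 0.09). *Abhd12*, beside *Gins1* (-0.33), was higher in every cKO library (0.16 ± 0.10). *Slc25a40* beside *Dbf4* and *Umad1* beside *Rpa3* overlapped. Over all genes tested, 10.9% were lower and 10.5% higher in every cKO library. The median of the 10 neighbours was -0.05. Their adjusted p by limma with Benjamini-Hochberg adjustment were all above 0.05, that of *Ints7* being 0.211. These neighbours were chosen by position, after the members' values had been seen.

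The 52 genes lie on 17 chromosomes, 9 of them on chromosome 5 and 6 on chromosome 8. Of the members, 19 share some exonic bases with another annotated gene, and in 4 the share is over 20% (*Fen1*, *Gins2*, *Chaf1a* and *Orc2*).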
